A study of Mus musculus with 26 samples.

Results

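The cytochrome P450 genes of families 1 to 4 were followed in mouse liver for 168 h after partial hepatectomy. They were taken from the RNA polymerase II (Pol II) files as every gene name made of Cyp, a family digit from 1 to 4, a lower-case subfamily letter and a number. There were 68 such genes, all 68 of them among the 20933 measured genes, in 20 subfamilies. The largest subfamilies were Cyp2c with 14 genes, Cyp2d and Cyp2j with 8 each and Cyp3a with 7. Names that end in a further letter, such as Cyp4a12a, lay outside this rule.

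P450 enzymes are haem proteins of the endoplasmic reticulum that add oxygen to their substrates with electrons passed on by P450 reductase. In the liver, families 1 to 3 oxidise drugs, toxins and steroids, while much of family 4 hydroxylates fatty acids. Their genes are classic targets of ligand-activated receptors: Ahr for Cyp1a, CAR (Nr1i3) and PXR (Nr1i2) for Cyp2b, Cyp2c and Cyp3a, and PPARalpha for Cyp4a. Many also differ between male and female mice and between the zones of the liver lobule.

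All animals were wild-type male C57BL6/J mice, 7 weeks old, that lost 3 of 5 liver lobes, and the lobes removed gave the 0 h sample. ChIP-seq, in which DNA bound by a chosen protein is pulled down with an antibody and sequenced, was done at 0, 3, 8, 16, 24, 36, 48 and 168 h with antibodies to C/EBPalpha, C/EBPbeta and Pol II. Egr1, an immediate early transcription factor, was assayed at 36 h alone. Each antibody and time had 1 library, made from 5 mice with no word on pooling, so there were no replicates. No sham-operated group was analysed here, so time after surgery, the hour of the day and library batch cannot be told apart. A mock immunoprecipitation at 0 h was not analysed here. The files hold no read counts, so depth is unknown.

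Pol II is given below as the deposited signal of a gene divided by the width of its measured body and rescaled between libraries, in signal per bp. It is a difference from a background, so it can lie below 0. A change is the log2 ratio to the single 0 h library, with values below 0 set to 0 and 0.5 added, and a change of 1 or more in either direction is counted as higher or lower. Such a count compares pairs of libraries and carries no test. Markers of hepatocytes were present in the libraries, with a mean of at least 1 over the 8 libraries for all 8 genes of the list. The same held for 1 of 7 macrophage markers, 1 of 8 endothelial, 1 of 4 neutrophil, and none of 8 stellate cell and fibroblast, 4 cholangiocyte and 5 lymphocyte markers. In whole liver, fewer cells of a type and less Pol II per cell cannot be told apart. The 3 h library stood apart, since its deposited signal summed to below 0 over all entries and 50.6% of entries were below 0, against 38.4% to 44.3% in the other 7 libraries.

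A minority of the P450 genes carried Pol II in these livers. The mean over the 8 libraries was at least 1 signal per bp for 17 of 68 genes , against 10.9% of measured genes. It was at least 2 for 10 of these, namely Cyp1a2, Cyp2d9, Cyp2d10, Cyp2d22, Cyp2d26, Cyp2e1, Cyp2f2, Cyp2t4, Cyp3a11 and Cyp3a25. The other 51 genes had means from -0.85 to 0.78, with a median of -0.09, and 16 of the 68 lay below 0 in every library. Just inside the limit of 1 were Cyp4f13 with a mean of 1.07 and Cyp2u1 with 1.12, and just outside it Cyp2c44 with 0.78 and Cyp2a5 with 0.71. Occupancy was uneven between subfamilies. Of the Cyp2d genes 4 of 8 reached a mean of 2, whereas none of the 8 Cyp2j or 5 Cyp2b genes reached 1. Near-identical copies are a limit here, since no source used here tells how reads with several matches were treated. The promoters of Cyp2b9 and Cyp2b13 were 99.3% identical, and those of Cyp2a4 and Cyp2a5 97.7%. Promoters lie outside the measured bodies, whose identity was not computed, so low values of such genes remain uncertain.

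The most prominent feature over time was low Pol II at 3 h. Of the 17 genes with a mean of at least 1, 11 were lower than at 0 h by 1 or more at 3 h, beside 23.3% of the 2281 genes of that level. Only Cyp2c70 was higher, beside 23.8%. The median change of the 17 was -1.67, while that of the 2281 genes was 0.01. For 11 of the 17 genes the 3 h value was the lowest of the 8, a share that was not computed for the 2281 genes. Over all 68 genes the counts at 3 h were 15 lower and 1 higher, beside 6.76% and 4.78% of measured genes. By 8 h 10 of the 17 were higher by 1 or more than at 3 h, as had 17.3% of genes of that level.

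**Figure D1:**
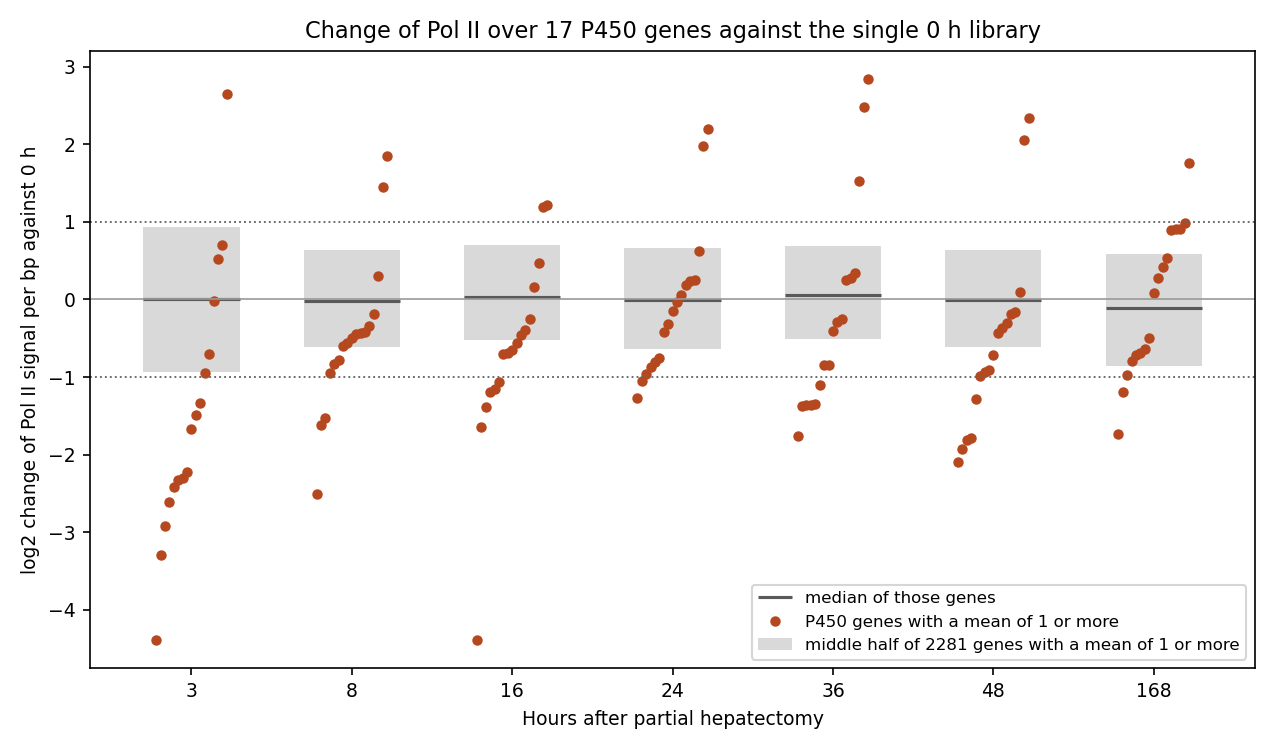
Log2 change of Pol II signal per bp against the single 0 h library (vertical axis) at 7 later times (horizontal axis). Points are the 17 P450 genes with a mean of at least 1, drawn in rising order within a time, grey bars run from the lower to the upper quartile of the 2281 genes of that level and grey lines their median. At 3 h 11 points lie at -1 or below and 1 lies above 1.

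Later libraries held fewer low P450 genes. At 8 h 3 of the 17 genes were lower by 1 or more and 2 higher, beside 12.6% and 17% of genes of that level, and 6 and 2 of all 68, beside 4.78% and 3.3% of measured genes. At 16 h the counts were 6 lower and 2 higher of 17 (11.5% and 17.7%), and 10 and 3 of 68 (4.11% and 3.65%). At 24 h there were 2 lower and 2 higher of 17 (14.1% and 16.9%), and 3 and 5 of 68 (5.15% and 4.92%). At 36 h there were 6 lower and 3 higher of 17 (11.4% and 17.4%), and 8 and 5 of 68 (4.24% and 4.27%). At 48 h it was 5 and 2 of 17 (13.4% and 16.4%), and 7 and 2 of 68 (4.9% and 3.58%). At 168 h 2 were lower, Cyp1a2 and Cyp2d26, and Cyp3a13 was higher, both of 17 (21.7% and 14.8%) and of 68 (6.19% and 5.48%). The median changes of the 17 genes from 8 to 168 h were -0.50, -0.65, -0.15, -0.41, -0.72 and 0.09. Without rescaling, the lower genes of all 68 numbered 7 at 24 h and 9 at 168 h, and the matching share of measured genes was not computed.

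A smooth course over the 8 times was tested with limma, a linear model that shares variance information between genes, on 4761 genes above 0.5 signal per bp in at least 2 libraries. Of the 68 P450 genes 25 passed this filter, and 0 of them were called at a Benjamini-Hochberg adjusted p under 0.05, beside 0.021% of the tested genes (1 gene). The smallest adjusted p of a P450 gene was 0.477, for Cyp4f14. At an unadjusted p under 0.05 there were 3, Cyp4f14, Cyp3a13 and Cyp2c29, beside 9.62% of tested genes. The spread in this model is that of single libraries around a smooth curve, which a dip in 1 library such as that at 3 h enlarges.

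Family 1 carried the largest change at 3 h among the 17 genes. Cyp1a2, an Ahr target that oxidises caffeine and arylamines (chromosome 9, 57524745 to 57530962, minus strand), stood at 9.96, -0.69, 1.34, -0.28, 5.20, 3.54, 1.94 and 4.08 signal per bp from 0 to 168 h. It was thus at or below 0 at 3 and 16 h and at no later time regained its 0 h level. The change at 3 h was -4.39 and is limited by the 0.5 added. Cyp1a1, the other Ahr target, read 1.33 at 0 h and -0.59 at 3 h. Its entry runs over 51936 bp, with 500 bp added 3.3 times its RefSeq length, and contains that of Cyp1a2. The reading of Cyp1a1 thus takes in the signal over Cyp1a2 and is not a measure of Cyp1a1 alone. Cyp1b1, an Ahr target expressed mainly outside the liver, was below 0 in all 8 libraries and overlaps 1700038P13Rik.

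Cyp2e1, which oxidises ethanol and paracetamol in hepatocytes around the central vein (chromosome 7, 147950251 to 147960874, plus strand), had the highest Pol II signal of the 68 genes. Its values from 0 to 168 h were 47.4, 18.6, 31.8, 29.2, 46.4, 18.4, 35.0 and 50.4 signal per bp. Both 3 h and 36 h were low and close to each other, with changes of -1.33 and -1.34, while 24 h and 168 h were near the 0 h level. This gene alone made up 19.0% (36 h) to 44.8% (48 h) of the summed signal per bp of the 68 genes. Cyp2f2, which activates naphthalene and marks periportal hepatocytes (chromosome 7, 27905475 to 27918678, plus strand), read 6.92, 2.15, 4.38, 2.33, 3.09, 3.63, 3.44 and 9.41. It was below its 0 h value at every time but 168 h. Without rescaling the 168 h changes of Cyp2e1 and Cyp2f2 turn from 0.09 to -0.87 and from 0.42 to -0.49.

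The Cyp2d genes, whose human relative CYP2D6 metabolises many amine drugs, were high at 0 h and low at 3 h. Cyp2d9, the male-predominant steroid 16alpha-hydroxylase (chromosome 15, 82283308 to 82287254, plus strand), read 19.3, 3.73, 10.6, 8.44, 9.73, 8.76, 5.13 and 10.9 signal per bp. Cyp2d26 (chromosome 15, 82620538 to 82624175, minus strand) read 16.2, 2.23, 4.95, 9.75, 9.03, 6.02, 4.33 and 4.53. Cyp2d10 (chromosome 15, 82233277 to 82237112, minus strand) read 12.3, 0.81, 3.95, 3.61, 4.82, 3.30, 2.86 and 6.01. All of these had their highest value at 0 h and their lowest at 3 h, and none regained the 0 h value. Cyp2d22 (chromosome 15, 82201906 to 82210092, minus strand) moved less, at 12.1, 6.03, 6.81, 7.51, 9.59, 9.01, 5.83 and 7.28, and its lowest library was that at 48 h. The changes at 3 h were -2.23 for Cyp2d9, -2.61 for Cyp2d26, -3.29 for Cyp2d10 and -0.95 for Cyp2d22. The other 4 Cyp2d genes were at or under 0.5 signal per bp in every library.

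**Figure D2:**
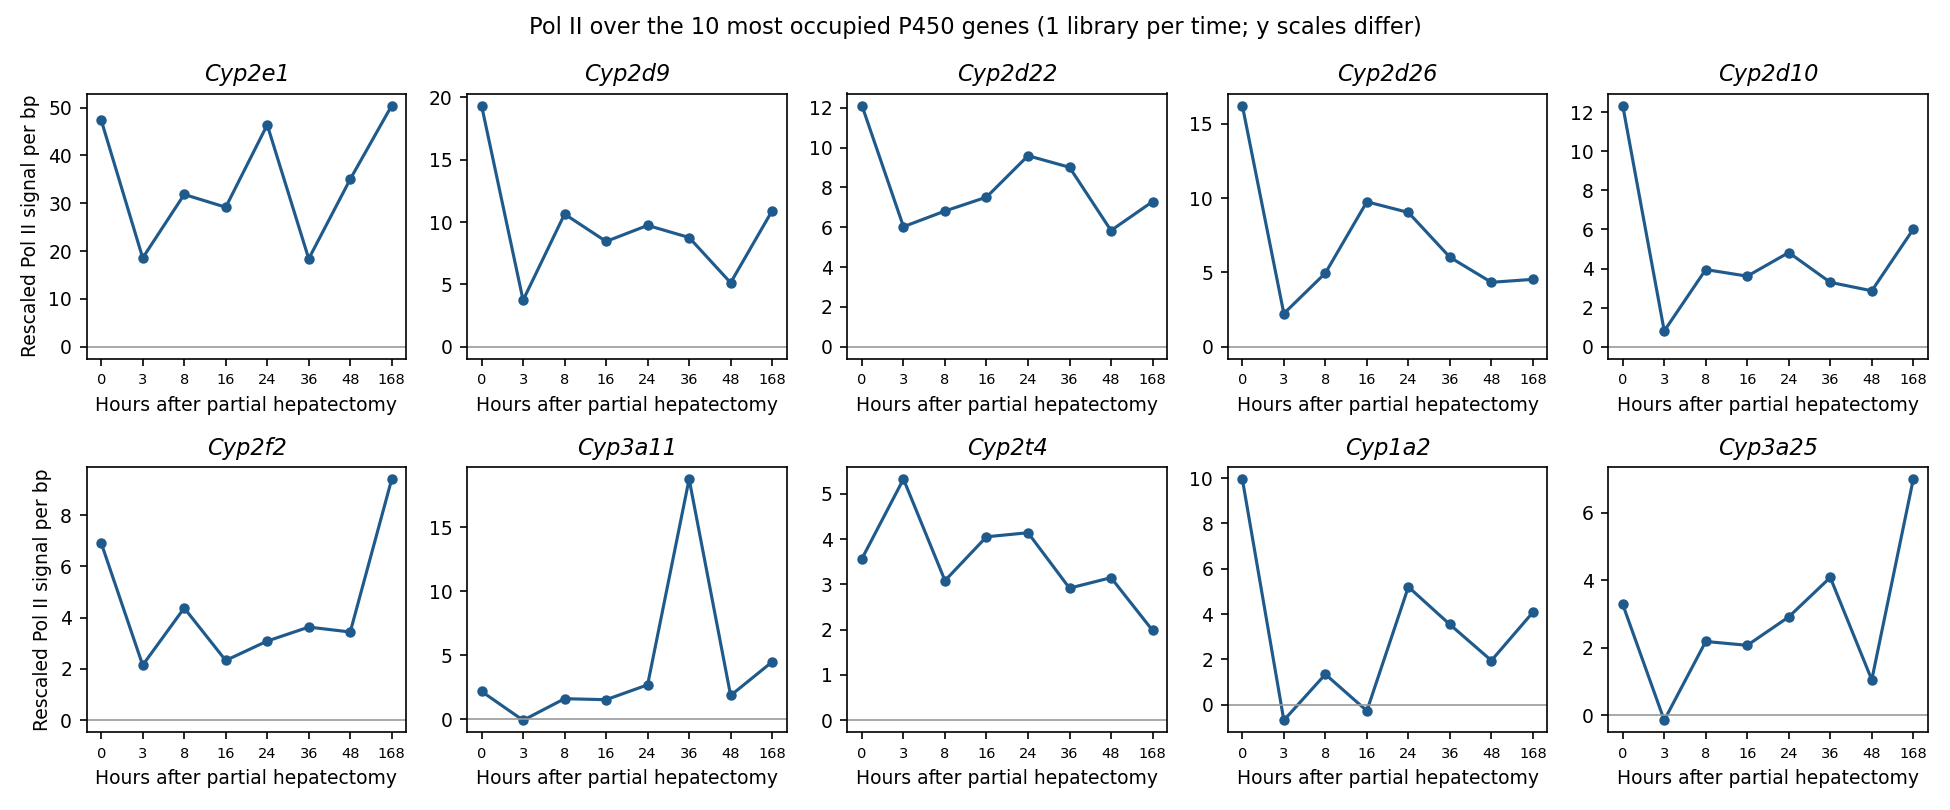
Rescaled Pol II signal per bp (vertical axis, own scale for each gene) in the 8 libraries (horizontal axis, hours, evenly spaced and not to scale) for the 10 P450 genes with a mean of at least 2. Each point is 1 library. The 3 h value is the lowest for 7 of the 10 genes (a share not computed for other genes), while Cyp2t4 is highest at 3 h and Cyp3a11 at 36 h.

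Cyp2t4, for which no role is given here (chromosome 7, 27940634 to 27943687, plus strand), did not share the low 3 h value. It read 3.57, 5.32, 3.08, 4.05, 4.14, 2.92, 3.15 and 1.98 signal per bp, and none of its changes reached 1, though without rescaling that at 168 h was -1.48. Cyp2c70, which hydroxylates bile acids to the muricholic acids of mice, read -0.14, 2.63, 0.86 and 0.19 from 0 to 16 h. It then read 1.80, 2.29, 2.03 and 0.44 from 24 to 168 h, so 3 h was its highest library after rescaling. Without rescaling 36 h was higher, at 2.77 against 2.63 at 3 h. Among the other 13 Cyp2c genes, targets of CAR and PXR in part, none reached a mean of 1. Cyp2c29 read 0.06 at 0 h and 2.19 at 36 h and lay between -0.27 and 0.99 in the other 6 libraries. Cyp2c44 read 1.46 at 0 h, -0.45 at 3 h and 1.48 at 168 h.

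Cyp2a5, the coumarin hydroxylase of mouse liver, was highest at both ends of the series. Its values were 2.60, -0.09, 0.51, -0.02, 0.15, -0.01, 0.12 and 2.39 signal per bp. The 6 libraries from 3 to 48 h were at or just over 0.5 or below, and those of 0 and 168 h did not overlap with them. The entry named Cyp2a22 read 2.06, 0.02, 1.39, 0.62, 1.41, 0.92, 1.06 and 2.60. Its name is in doubt. It lies on the plus strand 193751 bp after the start of Cyp2a5 and 90865 bp before that of Cyp2f2. In the RefSeq table of the build GRCm38.p6 Cyp2a12 has exactly these distances, while Cyp2a22 is on the minus strand and 104074 bp from Cyp2a5, and no entry of the files is named Cyp2a12. By the spacing of their neighbours, the starts of Cyp1a1, Cyp2c39 and Cyp2j6 also lay over 10 kb from the RefSeq place of that name. The other 63 of 67 genes that could be compared lay within 10 kb of it. Cyp2u1, a fatty acid hydroxylase, read 2.43 at 0 h and 0.09 at 3 h, and 0.64 to 1.59 at the later times.

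Cyp2b9, Cyp2b10 and Cyp2b13, the CAR targets of family 2b, lay between -0.39 and 0.03 in all 8 libraries. The female-predominant genes of mouse liver were likewise near 0 in these males, with none of the 7 measured at a mean of 1. Their summed signal was -0.81 to -0.40 over the libraries. Of the Cyp2j genes, which make epoxides of arachidonic acid, only Cyp2j5 passed the filter on low values, with 0.33 at 0 h, 1.19 at 36 h and changes of 1.20 at 24 h and 1.04 at 36 h. Cyp2r1, a vitamin D 25-hydroxylase, lay between -0.47 and 0.01.

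Cyp3a11, the main drug-oxidising enzyme of its subfamily and a PXR target (chromosome 5, 146666003 to 146690940, minus strand), was high in a single library. Its values were 2.18, -0.07, 1.61, 1.53, 2.69, 18.7, 1.86 and 4.48 signal per bp. The 36 h value lay far above the other 7, with a change of 2.85. The change at 3 h, -2.42, is limited by the 0.5 added and ran from -4.51 to -1.06 with other pseudocounts. Cyp3a25 (chromosome 5, 146788777 to 146820684, minus strand) read 3.29, -0.14, 2.19, 2.08, 2.92, 4.09, 1.05 and 7.00, with no such step at 36 h. Cyp3a13 differed from both. It read 0.24 at 0 h, 0.70 at 3 h and 1.22 to 2.56 from 8 to 168 h, and was the only one of the 17 genes higher by 1 or more in all 6 libraries from 8 h on. With a pseudocount of 2 its change was over 1 at 48 h alone (1.03), and 0.53 to 0.98 at the other 5 times.

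Of the 4 Cyp4a genes 2, Cyp4a14 and Cyp4a32, were higher by 1 or more at 16 h, beside 3.65% of measured genes. Of genes with a mean of at least 1, as Cyp4a32 had, 17.7% were so. The changes of Cyp4a14 and Cyp4a32, 2.78 and 1.20, were as low as 1.42 and 0.70 under the alternatives. Cyp4a14, a fatty acid omega-hydroxylase and PPARalpha target, read 3.64 at 16 h and -0.11 to 0.70 in the other 7 libraries. Cyp4a32 was highest at 16 h too, at 2.72 against 0.91 at 0 h and 0.37 at 3 h. Cyp4a10, another PPARalpha target, read 0.46 at 16 h and -0.09 to 0.16 elsewhere, and Cyp4a31 lay between -0.22 and 0.05. Of the 9 PPARalpha targets outside the P450 genes, 1 was higher by 1 or more at 16 h and 1 lower. Of measured genes 3.65% and 4.11% were so, and 17.7% and 11.5% of genes with a mean of at least 1. Ppara itself read 5.18 at 0 h, 2.25 at 3 h and 4.16 at 16 h. Of the Cyp4f genes, which hydroxylate leukotrienes and fatty acids, Cyp4f15 read 1.47 at 0 h, 0.12 at 3 h and 2.55 at 24 h. Cyp4f14 read 0.51 at 0 h, -0.75 at 3 h and 1.32 at 24 h, and Cyp4f13 stayed between 0.68 and 1.41.

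**Figure D3:**
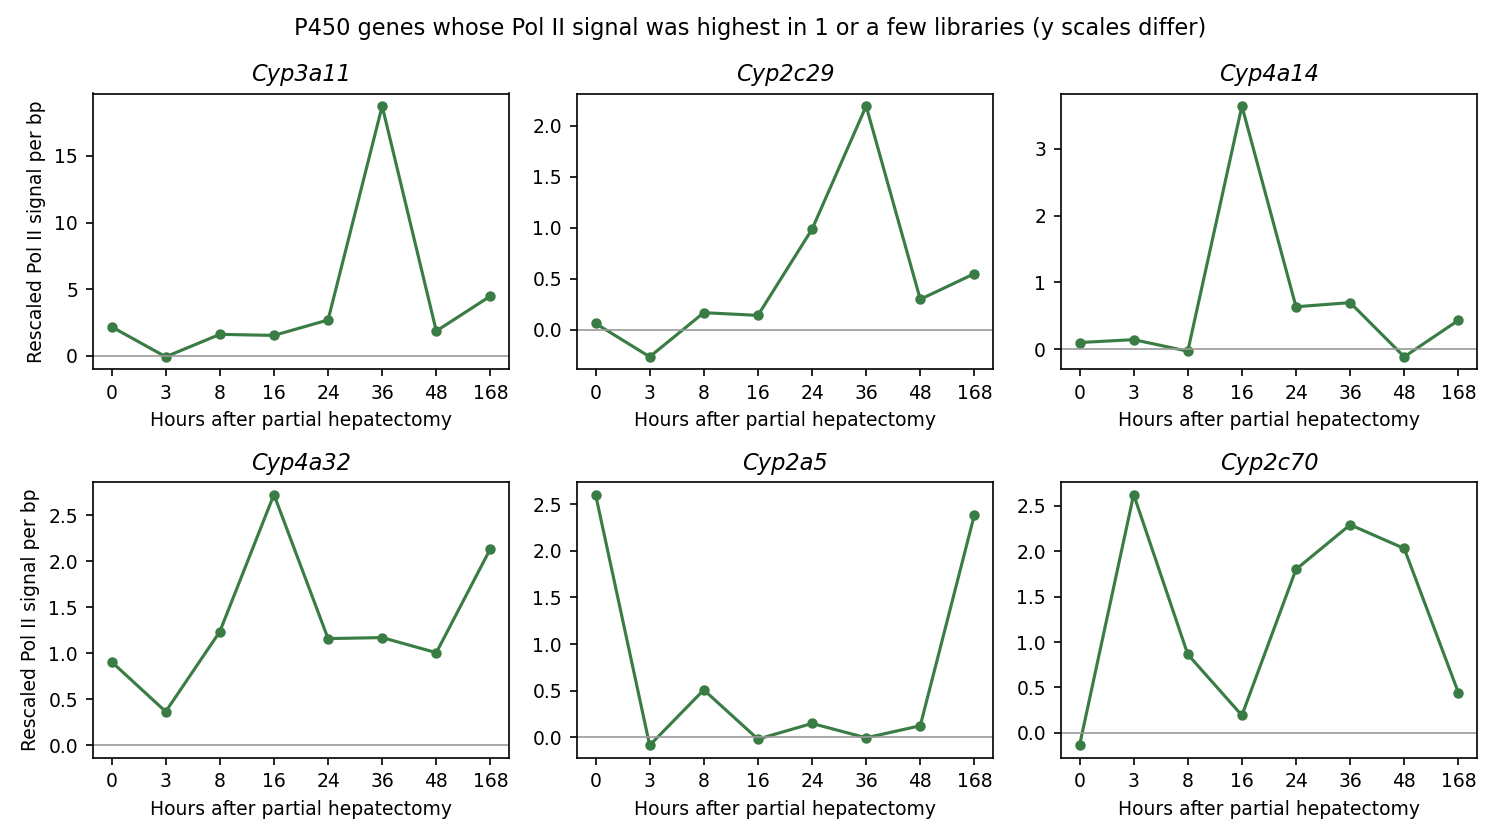
Rescaled Pol II signal per bp (vertical axis, own scale for each gene) in the 8 libraries (horizontal axis, hours, evenly spaced and not to scale) for 6 P450 genes. Cyp2c70 reads 1.80 to 2.63 at 3, 24, 36 and 48 h, and Cyp4a32 at least 0.91 in every library but 3 h. Each point is 1 library, and Cyp3a11 reaches 18.7 at 36 h and Cyp4a14 3.64 at 16 h.

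The partners of the P450 enzymes did not all share the low 3 h value. Por, the reductase that passes electrons to every microsomal P450, read 6.37 signal per bp at 0 h, 13.6 at 3 h and 5.46 to 9.48 later. Cyb5, the cytochrome that assists some of them, read 7.36 at 0 h and 1.13 at 3 h. Of the 5 measured redox partners 2 were lower and 1 higher by 1 or more at 3 h, beside 6.76% and 4.78% of measured genes. These 3 genes all had a mean of at least 1, a level at which 23.3% and 23.8% of genes were so. Alas1, the rate-limiting enzyme of haem synthesis in liver, read 20.8, 56.5, 45.1, 37.0, 61.6, 78.5, 46.4 and 42.8, so it exceeded its 0 h value in all 7 later libraries. Of the 9 genes of haem synthesis 2 were lower at 3 h and 1, Alas1, higher, beside 6.76% and 4.78% of measured genes. At a mean of at least 1, which 3 of the 9 had, it was 23.3% and 23.8% of genes. The lower ones were Alad (3.95 at 0 h and 0.505 at 3 h) and Uros (0.56 and -0.18). Uros had a mean of 0.09, so its change is limited by the 0.5 added. Of 7 other detoxifying enzymes, 6 of them with a mean of at least 1, 4 were lower at 3 h and none higher, beside 23.3% and 23.8% of genes of that level, among them the epoxide hydrolase gene Ephx1, which read 3.12 at 0 h and -0.25 at 3 h.

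Among 20 regulators of hepatic P450 genes, 8 were lower and 3 higher by 1 or more at 3 h, and 17 of the 20 had a mean of at least 1, a level at which 23.3% and 23.8% of genes were so. Nr1i3, which encodes CAR, read 22.5, 3.79, 6.72, 18.3, 14.6, 7.74, 5.33 and 12.3 signal per bp. Nr1i2, which encodes PXR, read 2.07 at 0 h, 2.01 at 3 h and 2.65 at 36 h, and none of its changes reached 1. Ahr went the other way and read 0.36 at 0 h, 1.64 at 3 h and 1.72 to 3.08 later. Dbp and Tef, clock-controlled activators of P450 genes, read 57.6 and 3.83 at 0 h, and 14.2 and 0.44 at 3 h. Cebpa read 93.2 at 0 h and 18.9 at 3 h, and Cebpb 56.5 and 381. The hepatocyte markers moved both ways at 3 h, with 3 of 8 lower and 2 higher by 1 or more. Apoa1 (305 and 649) and Tat (55.2 and 142) were higher, the other 6 read less at 3 h than at 0 h, among them Alb (38.5 and 16.9) and Ttr (17.9 and 2.39), and the median change of the 8 was -0.88. Summed marker signal from 0 to 3 h went from 435 to 818 for hepatocytes, most of it Apoa1, from 3.49 to 1.27 for macrophages and from 2.93 to 3.14 for endothelial cells. It went from 5.11 to 1.06 for neutrophils and from -2.17 to -3.94 for stellate cells and fibroblasts, of which 4 of 8 markers were at or below 0 in every library. For cholangiocytes it went from -3.07 to -2.33 and for lymphocytes from -1.72 to -1.66, with 3 of 4 and 4 of 5 markers at or below 0 throughout. Before rescaling, the median of 232 receptor genes silent in liver was -0.151 deposited signal per bp at 0 h and -0.158 at 3 h. These medians are thus not on the scale of the P450 values given here. Rescaling shifts 3 h by 0.26 on log2 against 0 h, so on that scale the 3 h median lies further below that of 0 h. With the background set per library 16 of the 68 P450 genes were lower at 3 h, against 15, and the share of measured genes was not computed with that setting. Whether cell makeup took part in the low P450 values was not tested.

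C/EBPalpha and C/EBPbeta are leucine zipper factors that bind the same DNA element, and C/EBPalpha is a known activator of several liver P450 genes. Each of the 16 lists was set to its 20061 top-scoring regions, as many as the shortest holds, and a gene was counted when a region centre lay near its start. The number of the 68 genes with a C/EBPalpha region within 10 kb was 30, 23, 23, 24, 30, 24, 17 and 23 from 0 to 168 h, beside 26.7%, 29.3%, 27.1%, 29%, 25%, 29.9%, 31% and 30.2% of measured genes. For C/EBPbeta it was 28, 18, 21, 25, 29, 19, 21 and 21, beside 26.3%, 35.1%, 28.6%, 28.6%, 25.7%, 34.1%, 30.3% and 29.5%. For both factors the libraries of 0 and 24 h had the most P450 genes, with 41.2% to 44.1% of the 68. At 48 h for C/EBPalpha and at 3 and 36 h for C/EBPbeta the share of P450 genes lay below that of measured genes. Of the 17 genes with a mean of at least 1, C/EBPalpha regions were near 11, 12 and 10 at 0, 24 and 48 h. Of all genes of that level 62.5%, 59% and 71.5% had one. C/EBPbeta regions were near 12, 9, 11 and 11 of the 17 at 0, 3, 24 and 36 h. Of all genes of that level 62.5%, 76.3%, 60.6% and 74.2% had one.

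Within 1 kb, 13, 12, 10, 10, 14, 13, 10 and 13 of the 68 genes had a C/EBPalpha region, beside 9.88%, 12.7%, 9.42%, 12.5%, 8.08%, 13.2%, 14.1% and 13.7% of measured genes. For C/EBPbeta it was 18, 8, 11, 11, 14, 11, 11 and 11, beside 9.23%, 19.5%, 11.3%, 11.8%, 8.77%, 18.3%, 13.2% and 12.8%. The 3 h C/EBPbeta list thus had the fewest P450 starts and the largest share of all starts. Over the 8 times the number within 10 kb was 22.75 ± 4.10 for C/EBPbeta and 24.25 ± 4.20 for C/EBPalpha (mean ± SD over 8 times, which are not replicates). C/EBPalpha had more at 6 of 8 times, a mean difference of -1.5 genes for C/EBPbeta minus C/EBPalpha, which an exact two-sided sign-flip permutation test did not call (p = 0.234, adjusted over both distances 0.469, smallest possible p 0.0078). Within 1 kb both means were 11.9 and the difference was 0.0 (exact p = 1.0). The direction within 10 kb turned with the full lists (1.625).

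**Figure D4:**
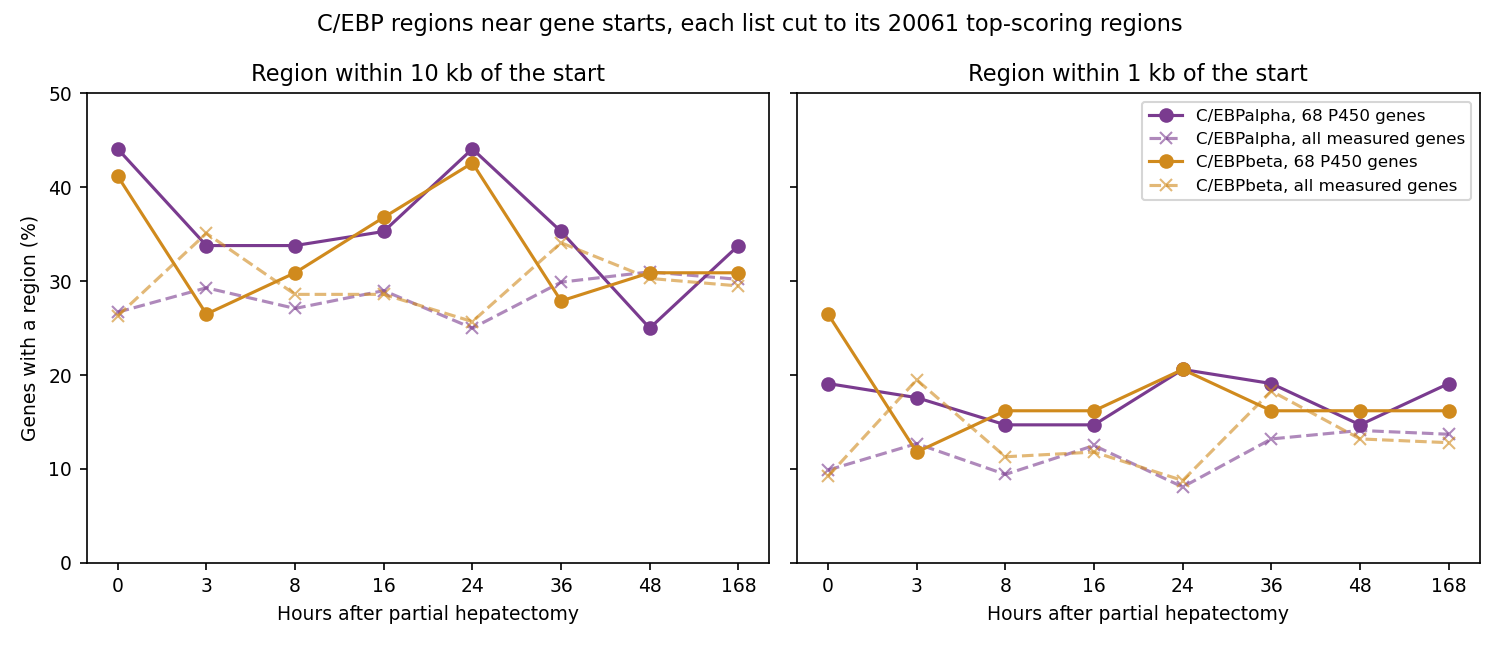
Share of genes with a C/EBP region within 10 kb (left) and 1 kb (right) of the start (vertical axis, percent) in each library (horizontal axis, hours, evenly spaced and not to scale). Solid lines with dots are the 68 P450 genes and dashed lines with crosses all measured genes, for C/EBPalpha (purple) and C/EBPbeta (orange). At 0 and 24 h both factors lie at 41.2% or more for P450 genes within 10 kb.

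In the full lists, 12 of the 68 genes had a region within 10 kb at every time for both factors, beside 17.2% of measured genes, and 18 had none in any list, beside 32.3%. Of the 17 genes with a mean of at least 1 it was 5, beside 49.6% of genes of that level. Within 1 kb all 16 lists held a region at Cyp2b10, Cyp2r1, Cyp4f14, Cyp4v3 and the entry named Cyp2a22. These 5 of 68 compare with 5.33% of measured genes, and the 1 of them with a mean of at least 1 compares with 15% of genes of that level. Region centres joined within 100 bp gave 172 sites within 10 kb of the 68 starts. Of these, 11 were in all 16 lists and 74 in a single list, 25 of them in the 0 h C/EBPbeta list, the longest list with 54574 regions.

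Several of the sites present throughout lay away from the start of an occupied gene. Cyp2f2 had 2 in its body, 5204 and 9102 bp past the start, the first at chr7:27910075-27910228. Counted from the start, Cyp2d26 had one at -2052 bp, at chr15:82626550-82626830, and another at -284 bp in 15 of 16 lists. Cyp3a11 had one at -1554 bp in 15 lists, at chr5:146692951-146693101. Cyp2e1 had 12 sites within 10 kb and none in all 16 lists. In the full lists its start had a region within 1 kb in 5 C/EBPalpha and 7 C/EBPbeta lists. Cyp1a2 and Cyp2t4 had 1 site each, in 1 C/EBPbeta list. Positions of sites are in the build mm9.

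Sequence around starts was taken for the 5 genes with a region centre within 250 bp of the start in the most lists, in 16 of 16 lists for the entry named Cyp2a22, Cyp4f14 and Cyp2b10, 12 for Cyp3a13 and 11 for Cyp2c70. Cyp2c37, also in 11 lists, has a lower mean Pol II signal and is not shown. They are shown because these starts kept a C/EBP region through most of the series whether or not Pol II was measured on the gene. The bases run from 250 before to 50 after the RefSeq start in the build GRCm38.p6. Judged by the 10 nearest genes, that start lay at most 63 bp from the start used here for all 5. The sequence at the entry named Cyp2a22 is that of Cyp2a12. Capitals mark TTNNNCAA, a loose form of the C/EBP element, and TTGCA, a core of 5 letters, on either strand.
Cyp2a12 (chr7:27028840-27029139, plus strand): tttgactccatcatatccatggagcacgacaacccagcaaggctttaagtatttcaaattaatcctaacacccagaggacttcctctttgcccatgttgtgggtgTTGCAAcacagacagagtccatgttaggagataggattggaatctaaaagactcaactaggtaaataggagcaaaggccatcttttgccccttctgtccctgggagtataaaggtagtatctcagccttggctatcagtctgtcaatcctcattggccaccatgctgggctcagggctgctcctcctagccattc
Cyp4f14 (chr17:32917038-32917337, minus strand): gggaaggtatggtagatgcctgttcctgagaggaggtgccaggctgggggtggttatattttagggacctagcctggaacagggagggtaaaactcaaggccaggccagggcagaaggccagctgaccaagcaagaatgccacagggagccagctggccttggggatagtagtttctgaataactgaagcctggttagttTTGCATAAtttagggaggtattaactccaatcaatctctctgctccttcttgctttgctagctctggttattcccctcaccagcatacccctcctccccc
Cyp2b10 (chr7:25897408-25897707, plus strand): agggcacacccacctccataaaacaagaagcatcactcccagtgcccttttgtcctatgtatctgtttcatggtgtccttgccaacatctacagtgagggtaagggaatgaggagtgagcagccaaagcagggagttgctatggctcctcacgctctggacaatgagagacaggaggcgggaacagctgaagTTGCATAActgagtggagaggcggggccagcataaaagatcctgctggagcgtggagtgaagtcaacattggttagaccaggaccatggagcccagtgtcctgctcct
Cyp3a13 (chr5:137921570-137921869, minus strand): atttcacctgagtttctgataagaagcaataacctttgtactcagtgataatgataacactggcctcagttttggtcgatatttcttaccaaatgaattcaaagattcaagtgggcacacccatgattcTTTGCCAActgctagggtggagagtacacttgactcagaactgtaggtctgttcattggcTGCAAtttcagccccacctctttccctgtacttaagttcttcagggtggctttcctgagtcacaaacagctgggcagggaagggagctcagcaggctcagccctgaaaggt
Cyp2c70 (chr19:40187237-40187536, minus strand): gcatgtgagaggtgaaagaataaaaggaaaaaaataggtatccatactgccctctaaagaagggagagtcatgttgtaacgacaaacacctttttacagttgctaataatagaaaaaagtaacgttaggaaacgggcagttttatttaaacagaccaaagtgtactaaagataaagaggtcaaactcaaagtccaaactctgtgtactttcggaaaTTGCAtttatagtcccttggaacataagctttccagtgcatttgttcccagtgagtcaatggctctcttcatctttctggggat
The median region centre lay at -146 bp for Cyp2a12, where TTGCA starts at -145, and at -94 for Cyp4f14, where TTGCATAA starts at -50. For Cyp2b10 it lay at -69, with TTGCATAA from -58. For Cyp3a13 it lay at -118, with TTTGCCAA from -121 and TGCAA, the reverse complement of TTGCA, from -61. For Cyp2c70 it lay at -30, with TTGCA from -34.

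Letters of this kind were also common elsewhere. TTNNNCAA, which can share letters with TTGCA and takes in TTGCGCAA but not TTGCNNCAA, was in 31 of the 56 P450 promoters that the table holds (55.4%) and in 36.7% of all 32851 promoters. TTGCA, chosen after the sequences were seen, was in 51.8% and 35.6%. The full palindrome TTGCGCAA was in 0 of 56 and 0.183%, and TTGCNNCAA in 3.57% and 2.08%. The TATA letters TATAAA were in 44.6% of the P450 promoters and 13.6% of all, on either strand. The Egr1 element GCGTGGGCG was in 0 of 56 and 0.612%. A match describes the letters and is not a binding site, and no match says only that these letters are not in the window.

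Egr1 peaks at 36 h lay at P450 genes more often than at other genes, whether or not the gene carried Pol II. Of the 68 genes 34 had a peak centre within 10 kb of the start, beside 10.9% of measured genes, and 19 (27.9%) had one within 1 kb, beside 2.22%. Within 250 bp there were 13, beside 1.22%. With peaks at or above the median score it was 23 within 10 kb, beside 5.87%. Of the 17 genes with a mean Pol II of at least 1, 11 had a peak within 10 kb, beside 22.5% of genes of that level, and 9 within 1 kb, beside 4.38%. Of the 51 genes under that level 10 had a peak within 1 kb, beside 1.95%. These genes share clusters and sequence, so they are not independent, and no test was made.

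The peaks near starts were distinct, since the 34 genes had 34 different nearest peaks. At Cyp2e1 the centre lay at -119 bp, at Cyp2d9 at 84, at Cyp2d10 at 12, at Cyp2a5 at -34 and at Cyp4a32 at -9. Starts of genes with almost no Pol II had them as well, among them Cyp2b10 at -48, Cyp2b9 at -130, Cyp2c54 at -47 and Cyp4a10 at 62. The highest authors' score of a peak within 1 kb was 594.84, at Cyp3a11, with its centre 870 bp past the start and a width of 2912 bp, followed by Cyp3a25 with 541.32. None of Cyp1a2, Cyp2f2, Cyp2t4 and Cyp2d22 had a peak within 10 kb. By subfamily, all 7 Cyp3a genes and 6 of 8 Cyp2d genes had a peak within 10 kb, and 8 of 14 Cyp2c genes did. None of the 8 Cyp2j and 6 Cyp4f genes had one.

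Egr1 peaks were also counted over whole clusters, with those at starts included, and their density differed between clusters. A cluster was taken as 3 or more P450 genes less than 1 Mb apart, with 10 kb on each side. The Cyp3a cluster of 6 genes (chromosome 5, 146096649 to 146934451) held 40 Egr1 peaks, or 47.7 per Mb, against 3.84 per Mb over the span of measured genes. The Cyp2d cluster had 29.4 per Mb, the cluster of Cyp2a, Cyp2b, Cyp2f, Cyp2g, Cyp2s and Cyp2t 24.0, and the Cyp4a cluster with Cyp4b and Cyp4x 19.6. The Cyp2c cluster had 10.8, Cyp4f 5.84 and Cyp2j 1.59. C/EBP regions of the full 36 h lists followed another order. Over the Cyp3a cluster they numbered 11.9 per Mb for either factor, against 10.5 for C/EBPalpha and 12.3 for C/EBPbeta over all spans. They were densest over Cyp2d, at 29.4 and 38.4 per Mb, and Cyp4f, at 25.3 and 35.0.

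**Figure D5:**
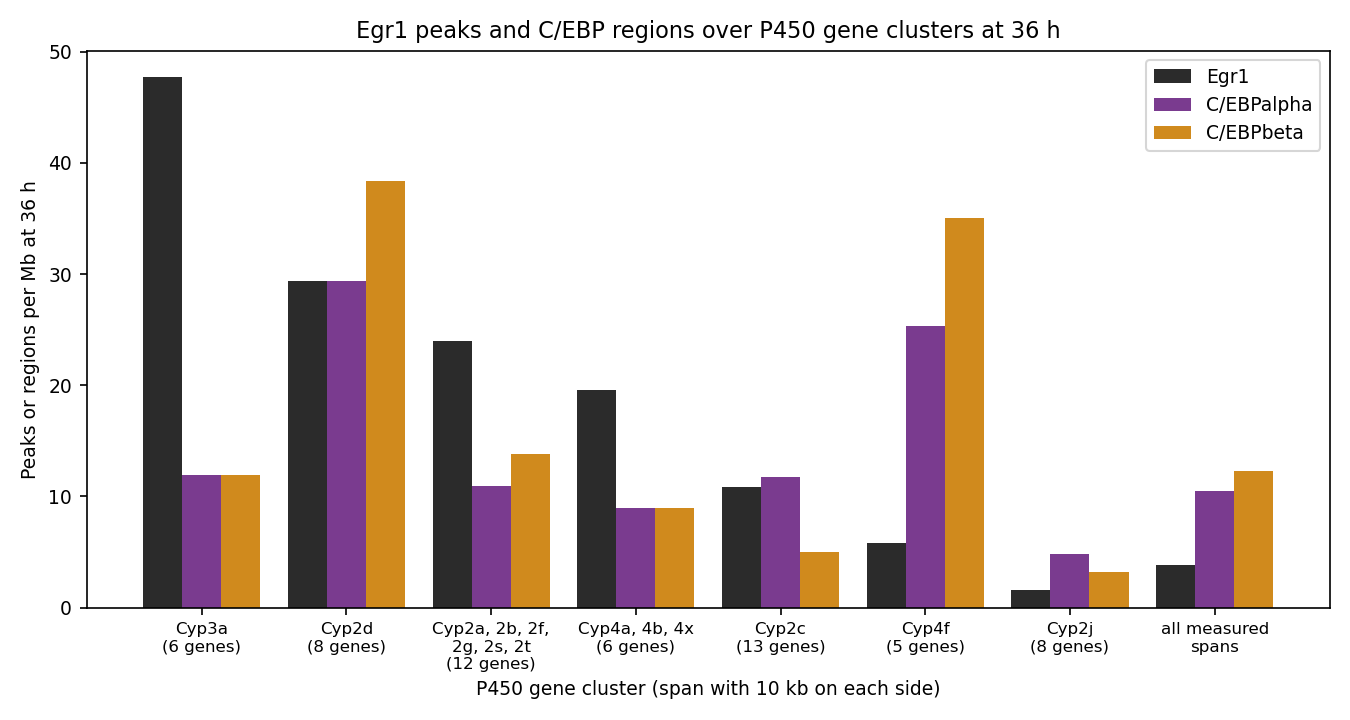
Peaks or regions per Mb at 36 h (vertical axis) over 7 clusters of P450 genes and over the span of all measured genes (horizontal axis), from 1 library each. Black bars are Egr1 peaks, purple bars C/EBPalpha and orange bars C/EBPbeta regions of the full lists, and the Egr1 bar of the Cyp3a cluster reaches 47.7 against 3.84 over all spans.

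Of the 19 Egr1 peaks within 1 kb of a P450 start, 10 held the centre of a C/EBPalpha or C/EBPbeta region of 36 h, and 47.5% of all 9895 Egr1 peaks did. Of the 19 genes with a peak within 1 kb 3 were higher than at 0 h by 1 or more, namely Cyp2c70, Cyp3a11 and Cyp3a13, and 4 were lower, beside 8.84% and 5.17% of measured genes with such a peak. Of the other 49 genes 2 were higher and 4 lower, beside 4.17% and 4.22% of genes without one. Whether the genes with and without a peak differ was not tested. Egr1 has no library at another time and the mock library was not analysed here, so whether the peaks were present at other times was not tested.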

How the data were processed

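The titles gave each sample's antibody and time. Of 26 samples 25 had a file that was used, and the mock sample was not analysed here. The submitters' processing notes name, without saying what each did, Bowtie 0.12.7, MACS 1.4.1 and mm9. Aligner settings, control libraries, the treatment of reads with several matches and the scaling of Pol II between libraries are stated in no source used here. The deposited Pol II files hold a signed score, per entry, whose edge at the 5′ side lies some 500 bp inside the gene, as read from its values. The deposited C/EBP and Egr1 lists hold a score per region, which is the authors' own and served here to order or filter each list.

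Of 31804 entries, 20933 with a unique name, a width of at least 500 bp and a named nuclear chromosome are called measured. Signal was divided by width, and libraries were rescaled with a median of ratios from the 1472 genes that exceed 0.5 in each of the 8, of which 7 are P450 genes. From 3 to 168 h the log2 shifts this made were 0.26, 0.33, -0.32, 0.41, -0.01, 0.33 and 0.97, so changes are relative to those genes. The trend was fitted in R 4.3.3 with limma 3.58.1 to log2 values, using a spline of time rank (natural, 3 df), Benjamini-Hochberg adjustment and a threshold of 0.05, and was tested on simulated data. C/EBP counts were compared with an exact sign-flip permutation test over 8 times, all sign patterns enumerated, in Python 3.11.15 with numpy 2.4.6. Starts are those of the entries moved back by 500 bp. Promoters and gene lengths are from RefSeq (GRCm38.p6), where 67 of the 68 names were current symbols and 56 genes had a promoter. The promoter of Cyp2a12 replaced that of Cyp2a22 because of its position, and this and the motif TTGCA were added after the data were seen.

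The P450 genes, the lists of partners, regulators and cell markers, and the rules were chosen with earlier results of these data known. Genes with a mean of 2 or more are given in every library, others by range or where they stand out. Alternatives were no rescaling, pseudocounts of 0.1 and 2, a background set per library from 232 receptor genes silent in liver, only genes with a mean of at least 1, genes with no overlapping entry, other numbers of regions, and each library or pair left out.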

Additional observations from a re-analysis of the deposited data

Results flagged for a closer look

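Cyp3a11 moved in opposite directions at 2 times against the same 0 h library, with a log2 change of -2.42 at 3 h and 2.85 at 36 h. These differ by 5.27 on the log2 scale. The 3 h signal was below 0, so that change depends on the pseudocount and ran from -4.51 to -1.06 under the alternatives. With 1 library at each time this difference was not tested. The signal per bp was 2.18 at 0 h, -0.07 at 3 h and 18.7 at 36 h, and the Egr1 peak near this start had the highest score of those within 1 kb of a P450 start. Cyp3a25, whose peak had the next highest score (541.32), changed by 0.275 at 36 h. Whether Egr1 and Pol II are linked at these genes was not tested.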

How the results depend on the processing

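The 15 P450 genes lower at 3 h became 22 with a pseudocount of 0.1, 11 with 2, 16 without rescaling, 16 with a background set per library, 13 without overlapping entries and 19 against the 168 h library. Other counts of the 68 genes moved by over 1.5 times as follows. With 0.1, those higher than at 0 h numbered 2, 5, 10, 9, 4 and 14 at 3, 16, 24, 36, 48 and 168 h, and those lower 11, 5, 13 and 5 at 8, 24, 48 and 168 h. With 2, those lower numbered 3, 5, 5 and 1 at 8, 16, 36 and 168 h, and those higher 0, 1, 0, 3 and 0 at 8, 16, 24, 36 and 168 h. Without rescaling, 7 were lower at 24 h and 9 at 168 h, and without overlapping entries 1 was lower at 168 h. Among genes with a mean of at least 1, 3 were lower at 8 h and 6 at 16 h, and 2 higher at 24 h and 3 at 36 h. The median change of all 68 genes was 0.0 at every time, and of those with a mean of at least 1 it was -1.67, -0.50, -0.65, -0.15, -0.41 and -0.72 from 3 to 48 h. With a background set per library the median of the 68 was -0.128, -0.0684 and -0.0935 at 8, 16 and 48 h. Against the 168 h library, a reference chosen after seeing the data, 2, 0, 2 and 1 were higher at 3, 8, 24 and 48 h and 5 lower at 36 h, with medians of -0.187, -0.0568, -0.0564 and -0.0436 at 3, 8, 16 and 48 h. Except for genes with a mean of at least 1, the matching share of all measured genes was not computed under these alternatives. Whether the shifts are particular to P450 genes is thus not known. The cause of these shifts was not tested.

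The difference of C/EBPbeta minus C/EBPalpha within 10 kb was reversed with full lists (1.625 genes), with the top 10000 regions (0.25) and among genes with a mean of at least 1 (0.375), and the cause was not tested. Without the 48 h pair it was -2.286, with an exact permutation p of 0.0469. Within 1 kb the difference was 0.0 and took both signs, from -0.714 without the 0 h pair to 1.125 among genes with a mean of at least 1. Egr1 peaks lay near 34 genes within 10 kb, 19 within 1 kb and 11 of those with a mean of at least 1. The limma trend called 0 P450 genes under every alternative run, and from 1 to 14 had an unadjusted p under 0.05. With the 0 h library left out it was 12 of 25, beside 897 of all 4528 genes tested. Without the filter on low values it was 14 of 68, beside 2794 of all 20933. With 1 library per time, no spread between animals is known.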

Other observations

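Of the 19 P450 genes of other families, 2 were lower and 1 higher by 1 or more at 3 h, beside 6.76% and 4.78% of measured genes. At a mean of at least 1, which 4 of the 19 had, it was 23.3% and 23.8% of genes. The 2 lower ones were Cyp8b1 and Cyp7a1. Cyp8b1, the sterol 12alpha-hydroxylase, read 70.1 signal per bp at 0 h and 8.41 at 3 h, and Cyp7a1, the rate-limiting enzyme of bile acid synthesis, 5.64 and -0.45. The genes that follow were named after their values were seen. Cyp26a1 and Cyp26c1, which degrade retinoic acid, read 3.28 and 2.90 signal per bp at 36 h, and -1.85 to 0.28 and -1.57 to 0.05 in the other 7 libraries. Cyp7b1, an oxysterol hydroxylase, read 2.10 at 24 h and -0.27 at 0 h. Cyp17a1, a steroid hydroxylase, lay between 3.02 and 5.39 in all 8 libraries, and Cyp27a1, which hydroxylates sterol side chains, between 1.27 and 3.25. Cyp51, of cholesterol synthesis, read -0.10 at 0 and 3 h and 0.51 to 1.08 later.

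The 8 entries of families 1 to 4 whose names carry a further letter or mark a pseudogene were all near or below 0. Cyp4a12a and Cyp4a12b, male-predominant in mouse liver, lay between -0.08 and 0.03 signal per bp in all 8 libraries from these male mice. No source used here tells whether reads shared between such copies were left out.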
